A study of Mus musculus with 7 samples.

Results

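Complement is a cascade of plasma proteins that coats particles and releases small peptides that call in leukocytes. The classical pathway starts with C1q, built from the products of C1qa, C1qb and C1qc, while the alternative pathway amplifies deposited C3 with factor B (Cfb) and is stabilised by properdin (Cfp). The peptides C3a and C5a act through C3ar1 and C5ar1. Although the liver makes most plasma complement, macrophages and some dendritic cells make C1q and properdin themselves, and C3a and C5a receptors are found on lung myeloid cells.

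The complement genes were chosen by name, with earlier results of these data known, so their counts beside the shares of all genes only describe. They were C1qa, C1qb, C1qc, C3, Cfb, Cfp, C3ar1 and C5ar1. Of these 8 genes, 7 had a probeset named for them alone in the platform annotation, 1 each, out of 19938 genes so measured; C3, the central component of the cascade, had none in that annotation and was not analysed here. Levels were log2 expression values from 7 Affymetrix arrays. Each array held RNA of cDC2s, the CD11b+ conventional dendritic cells of the lung, which take up inhaled material and prime T cells. They had been sorted by the phenotype Cd11c+ Mhc2+ Cd11b+ Ly6c- Cd64- and pooled from 10 female mice on a C57Bl/6 background. The groups were Irf3-deficient mice given 100 µg of house dust mite extract (3 arrays), wild type mice given the same extract (2 arrays) and wild type mice given PBS (2 arrays), all taken 12 hours after treatment. No allele name or age was in the labels, and Irf3-deficient mice given PBS were not analysed here, so genotype effects at rest could not be separated from effects on the response. Irf3 encodes a regulator that turns on type I interferon production downstream of innate sensors.

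The arrays followed their genotype labels. Irf3 stood at 8.26, 8.13 and 8.30 in the Irf3-deficient arrays, against 9.59 and 9.57 in wild type after extract and 9.48 and 9.56 after PBS. The array medians over all probesets lay between 7.60 and 7.69. Of the 13 markers fixed for cDC2s, all lay above 7.91, the median of all gene values, in every array. Their lowest was Zbtb46, at 9.51 to 10.09, and their highest H2-Ab1, at 14.14 to 14.29. Some markers of other cells also cleared 7.91 in every array, so this level does not show that the RNA came from cDC2s alone. The epithelial marker Sftpc lay at 11.88 to 13.10 and the macrophage marker Apoe at 9.87 to 13.45. Neutrophil markers were split. Ly6g lay below 7.91 in every array, at 5.55 to 6.03, while Lcn2 and Csf3r lay above it, at 9.18 to 11.45 and 8.05 to 8.56. Fcgr1, the gene of CD64, by which cells had been gated out, also lay above 7.91 in every array. It stood at 8.99, 9.14 and 9.27 in treated Irf3-deficient cells, at 10.61 and 10.99 in treated wild type and at 8.72 and 9.30 in PBS-treated wild type. The array pairs of the wild type groups were not equally close for complement: treated wild type array 2 exceeded array 1 by 0.97 to 1.53 log2 units for C1qa, C1qb, C1qc, C3ar1 and C5ar1. Gaps that wide were rare, since only 0.281% of all genes differed more between those arrays than C1qb, the member with the narrowest of these 5 gaps. Cfb and Cfp differed by 0.09 and -0.18 between the same arrays. Differences of these 5 genes from treated wild type are therefore given with both arrays and without each, and their differences between the other groups also from a fit without the treated wild type arrays.

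The measured genes lie on several chromosomes, but the C1q genes form a cluster: in the GRCm38.p6 assembly C1qa, C1qc and C1qb neighbour each other on chromosome 4, with 0 annotated genes between them. C1qb and C1qc moved together with the anaphylatoxin receptor genes C3ar1 and C5ar1 below, and the RefSeq promoters of those 4 genes are shown for that reason. Each covers 250 bases before and 50 after the gene start on the minus strand of GRCm38.p6, at chr4:136886151-136886450 for C1qb, chr4:136892865-136893164 for C1qc, chr6:122856108-122856407 for C3ar1 and chr7:16259289-16259588 for C5ar1. Capitals mark the core of the site of PU.1, a myeloid transcription factor, searched as GAGGAA on both strands.
C1qb: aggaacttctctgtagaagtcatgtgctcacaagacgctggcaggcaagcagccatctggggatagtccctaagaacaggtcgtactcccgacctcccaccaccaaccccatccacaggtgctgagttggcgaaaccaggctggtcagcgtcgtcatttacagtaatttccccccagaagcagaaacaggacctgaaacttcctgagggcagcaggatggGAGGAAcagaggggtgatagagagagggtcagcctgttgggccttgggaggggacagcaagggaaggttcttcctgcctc
C1qc: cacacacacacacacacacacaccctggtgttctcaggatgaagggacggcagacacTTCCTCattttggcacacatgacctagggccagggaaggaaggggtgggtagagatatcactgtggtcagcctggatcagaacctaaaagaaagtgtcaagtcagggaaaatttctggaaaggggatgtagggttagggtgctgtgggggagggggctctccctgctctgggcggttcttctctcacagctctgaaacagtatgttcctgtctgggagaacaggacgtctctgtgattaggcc
C3ar1: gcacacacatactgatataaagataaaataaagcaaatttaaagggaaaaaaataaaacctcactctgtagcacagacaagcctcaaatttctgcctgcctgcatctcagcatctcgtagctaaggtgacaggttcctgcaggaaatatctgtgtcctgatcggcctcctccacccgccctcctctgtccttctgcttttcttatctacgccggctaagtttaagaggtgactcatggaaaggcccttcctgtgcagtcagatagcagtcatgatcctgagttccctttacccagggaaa
C5ar1: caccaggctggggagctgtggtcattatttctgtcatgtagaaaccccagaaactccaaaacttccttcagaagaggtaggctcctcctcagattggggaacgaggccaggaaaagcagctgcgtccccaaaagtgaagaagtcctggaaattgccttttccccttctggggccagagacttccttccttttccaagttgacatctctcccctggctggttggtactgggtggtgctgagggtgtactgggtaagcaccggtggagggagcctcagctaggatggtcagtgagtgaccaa
C1qb held the core on the printed strand from base -30 and C1qc on the opposite strand from base -193, counted from the gene start, while these letters were not found in the windows of C3ar1 and C5ar1. Promoter entries existed for 6 listed genes, which include C3, not measured here, but neither C1qa nor Cfb. Over these 6 the core was found in 3, the third being Cfp, and it was present in 28.3% of all 32851 promoters of this length. The interferon-stimulated response element (2 GAAA blocks with any 2 bases between them), the STAT site (TTCNNNGAA) and the MAF half-site (TGCTGAC), searched on both strands, were found in 0 of the 6 windows, against 3.44%, 8.3% and 4.67% of all promoters. No capital letters of different motifs overlap for that reason. C1qa and Cfb had no promoter entry and are named only, so the motif counts say nothing about them.

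Mite extract moved all 7 measured complement genes in wild type cDC2s, in opposite directions. Cfb rose 9.08-fold, whereas the 3 C1q genes, Cfp, C3ar1 and C5ar1 fell, by 1.81-fold to 3.53-fold. In treated Irf3-deficient cells each of the 7 lay on the other side of treated wild type: Cfb was 6.26-fold lower and the other 6 were 1.82-fold to 2.89-fold higher. Against PBS-treated wild type, only Cfb passed the threshold in treated Irf3-deficient cells, 1.45-fold higher. Differences were tested with limma over all 7 arrays, with Benjamini-Hochberg adjusted p-values over 19938 genes and 0.05 as the threshold. Of all genes, 17.6% passed for treated against PBS-treated wild type (8.35% higher, 9.23% lower), 19.7% for treated Irf3-deficient against treated wild type (10.7% higher, 9% lower) and 10.8% for treated Irf3-deficient against PBS-treated wild type (5.89% higher, 4.91% lower). The median log2 difference of the 7 genes was -1.24, 1.40 and 0.01 in these comparisons, against 0.03, 0.00 and 0.04 over all genes. The treated wild type arrays enter the first and second comparison with opposite signs, and the third shares arrays with both.

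**Figure D1:**
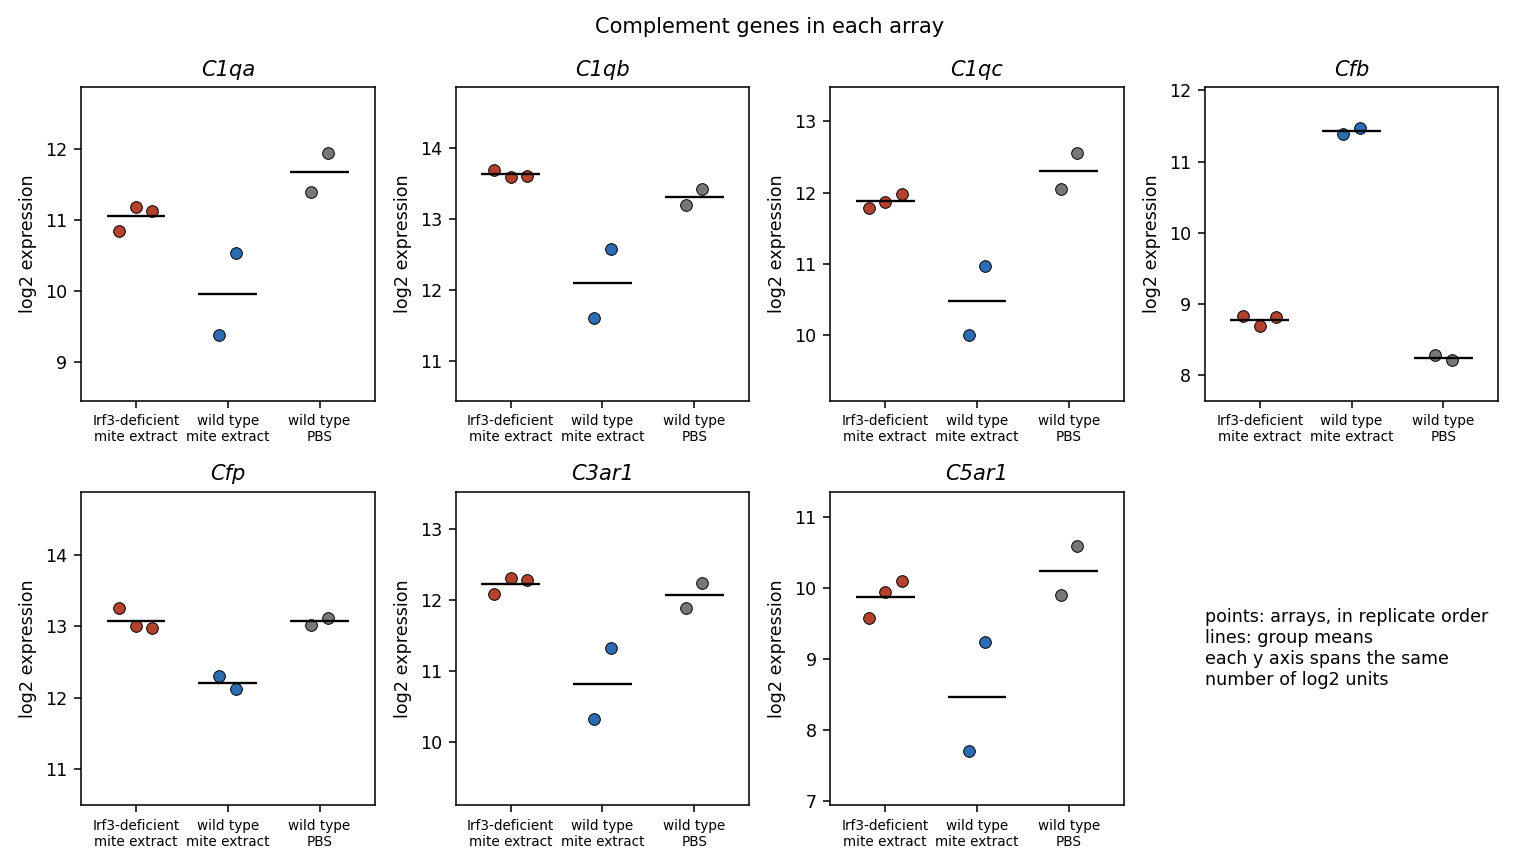
Log2 expression (y axis, spanning the same number of log2 units in each panel) of the 7 measured complement genes in the 3 groups (x axis); points are arrays and lines group means. Cfb is high in the treated wild type arrays alone, at 11.38 and 11.48, and the other 6 genes are lowest there, with wide gaps between the treated wild type arrays for all but Cfp.

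Among the initiating genes, C1qa, the A chain of C1q, stood at 10.85, 11.19 and 11.13 in treated Irf3-deficient cells, at 9.38 and 10.54 in treated wild type and at 11.40 and 11.94 in PBS-treated wild type. The 3 groups did not overlap, and treated wild type was lowest. C1qa fell by 1.71 ± 0.29 on the log2 scale in treated against PBS-treated wild type (SE, adjusted p = 0.00105 in limma), and was higher by 1.09 ± 0.26 in treated Irf3-deficient than in treated wild type cells (adjusted p = 0.00963). The second call rested on 1 array, since without treated wild type array 1 the difference was 0.52 with an adjusted p of 0.0877 in limma, and without array 2 it was 1.67. In wild type the fall was -1.13 without array 1 and -2.29 without array 2, and it passed both times.

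C1qb, the B chain, stood at 13.69, 13.59 and 13.61 in treated Irf3-deficient cells, at 11.61 and 12.58 in treated wild type and at 13.20 and 13.42 in PBS-treated wild type. Here the Irf3-deficient arrays were the highest of the 7. C1qb fell by 1.22 ± 0.22 in treated wild type (SE, adjusted p = 0.0016) and was higher by 1.53 ± 0.20 in treated Irf3-deficient than in treated wild type cells (adjusted p = 0.000146). Leaving out treated wild type array 1 or array 2 gave -0.73 and -1.70 for the first difference and 1.05 and 2.02 for the second, all past the threshold.

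C1qc, the C chain, stood at 11.79, 11.87 and 11.99 in treated Irf3-deficient cells, at 10.00 and 10.97 in treated wild type and at 12.05 and 12.56 in PBS-treated wild type. Its groups did not overlap, with the order that C1qa showed. C1qc fell by 1.82 ± 0.24 in treated wild type (SE, adjusted p = 0.000188) and was higher by 1.40 ± 0.22 in treated Irf3-deficient than in treated wild type cells (adjusted p = 7e-04). Without treated wild type array 1 or array 2 the values were -1.33 and -2.31, and 0.91 and 1.89, all past the threshold.

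Distances between the C1q probesets within an array were looked at after the values were seen, and they were not tested. The excess of the C1qb over the C1qa signal was 2.84, 2.40 and 2.48 log2 units in treated Irf3-deficient cells, 2.23 and 2.04 in treated wild type, against 1.80 and 1.48 in PBS-treated wild type. This gap was wider in every treated array than in the PBS arrays, and the groups did not overlap. The excess of C1qb over C1qc was 1.90, 1.71 and 1.62 in treated Irf3-deficient cells, 1.613 and 1.607 in treated wild type, against 1.15 and 0.86 in PBS-treated wild type. The gap of C1qc over C1qa was 0.94, 0.68 and 0.86 in treated Irf3-deficient cells, 0.61 and 0.43 in treated wild type, against 0.65 and 0.62 in PBS-treated wild type. In signal, the C1qb probeset thus stood apart from those of the other chains more than they did from each other. Signals of different probesets are not on the same scale, so the size of a gap does not give relative transcript amounts. Against PBS-treated wild type, treated Irf3-deficient cells differed by -0.62 for C1qa (adjusted p = 0.175), 0.32 for C1qb (adjusted p = 0.392) and -0.42 for C1qc (adjusted p = 0.295) in limma. C1qa and C1qb passed there, in opposite directions, when treated wild type arrays were kept out of the estimate of the spread, at adjusted p = 0.0164 and 0.0235 in limma; C1qc did not (adjusted p = 0.0516).

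In the alternative pathway, Cfb encodes factor B, the protease component of the alternative C3 convertase. It stood at 8.83, 8.69 and 8.82 in treated Irf3-deficient cells, at 11.38 and 11.48 in treated wild type and at 8.28 and 8.21 in PBS-treated wild type. The 3 groups were well apart, with arrays of 1 group within 0.14 of each other. Cfb rose by 3.18 ± 0.11 in treated wild type (SE; 9.08-fold, 95% CI 7.64 to 10.8, adjusted p = 5.14e-09). Treated Irf3-deficient cells were lower than treated wild type by a log2 difference of -2.65 ± 0.10 (SE; 6.26-fold, 95% CI 5.35 to 7.33, adjusted p = 2.04e-08). They were higher than PBS-treated wild type by 0.54 ± 0.10 (SE; 1.45-fold, 95% CI 1.24 to 1.70, adjusted p = 0.006). In none of the runs that left out 1 array did Cfb lose a call, and the values then lay between 3.14 and 3.23, between -2.69 and -2.60, and between 0.50 and 0.58.

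Cfp encodes properdin, the positive regulator that holds the alternative convertase together. It stood at 13.26, 13.005 and 12.97 in treated Irf3-deficient cells, at 12.30 and 12.12 in treated wild type and at 13.02 and 13.12 in PBS-treated wild type. Treated wild type lay below the other groups, which overlapped each other. Cfp fell by 0.86 ± 0.11 in treated wild type (SE; 1.81-fold, 95% CI 1.54 to 2.14, adjusted p = 0.000133) and was higher by 0.87 ± 0.10 in treated Irf3-deficient than in treated wild type cells (1.82-fold, 95% CI 1.57 to 2.12, adjusted p = 6.38e-05). The difference of treated Irf3-deficient from PBS-treated wild type cells was 0.01, with a 95% interval of -0.21 to 0.22. Unlike the C1q and receptor genes, Cfp did not separate the treated wild type arrays. Thus 1 component of the alternative pathway rose and the other fell in the same arrays.

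The receptors followed the C1q genes. C3ar1, the receptor of C3a, stood at 12.08, 12.31 and 12.27 in treated Irf3-deficient cells, at 10.32 and 11.33 in treated wild type and at 11.89 and 12.24 in PBS-treated wild type. The treated wild type arrays were lowest, and the other groups overlapped. C3ar1 fell by 1.24 ± 0.24 in treated wild type (SE, adjusted p = 0.00273) and was higher by 1.40 ± 0.22 in treated Irf3-deficient than in treated wild type cells (adjusted p = 0.000595). Without treated wild type array 1 or array 2 the values were -0.74 and -1.74, and 0.89 and 1.90, all past the threshold.

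C5ar1, the receptor of C5a, stood at 9.57, 9.95 and 10.09 in treated Irf3-deficient cells, at 7.71 and 9.24 in treated wild type and at 9.90 and 10.58 in PBS-treated wild type. It was the member on which the treated wild type arrays were furthest apart. C5ar1 fell by 1.77 ± 0.37 in treated wild type (SE; 3.41-fold, 95% CI 1.95 to 5.94, adjusted p = 0.00476) and was higher by 1.40 ± 0.34 in treated Irf3-deficient than in treated wild type cells (2.63-fold, 95% CI 1.58 to 4.37, adjusted p = 0.0105). Without PBS-treated wild type array 2 the fall was -1.43 and no longer passed (adjusted p = 0.07 in limma), and without treated wild type array 1 or array 2 it was -1.01 and -2.53. The difference between the treated genotypes was 0.63 without treated wild type array 1, with an adjusted p of 0.0939 in limma, and 2.16 without array 2. Against PBS-treated wild type, treated Irf3-deficient cells differed by 0.16 for C3ar1 (95% interval -0.32 to 0.63) and by -0.37 for C5ar1 (-1.11 to 0.36). Neither passed, with treated wild type arrays in the limma fit (adjusted p = 0.747 and 0.584) or kept out of it (adjusted p = 0.473 and 0.257).

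**Figure D2:**
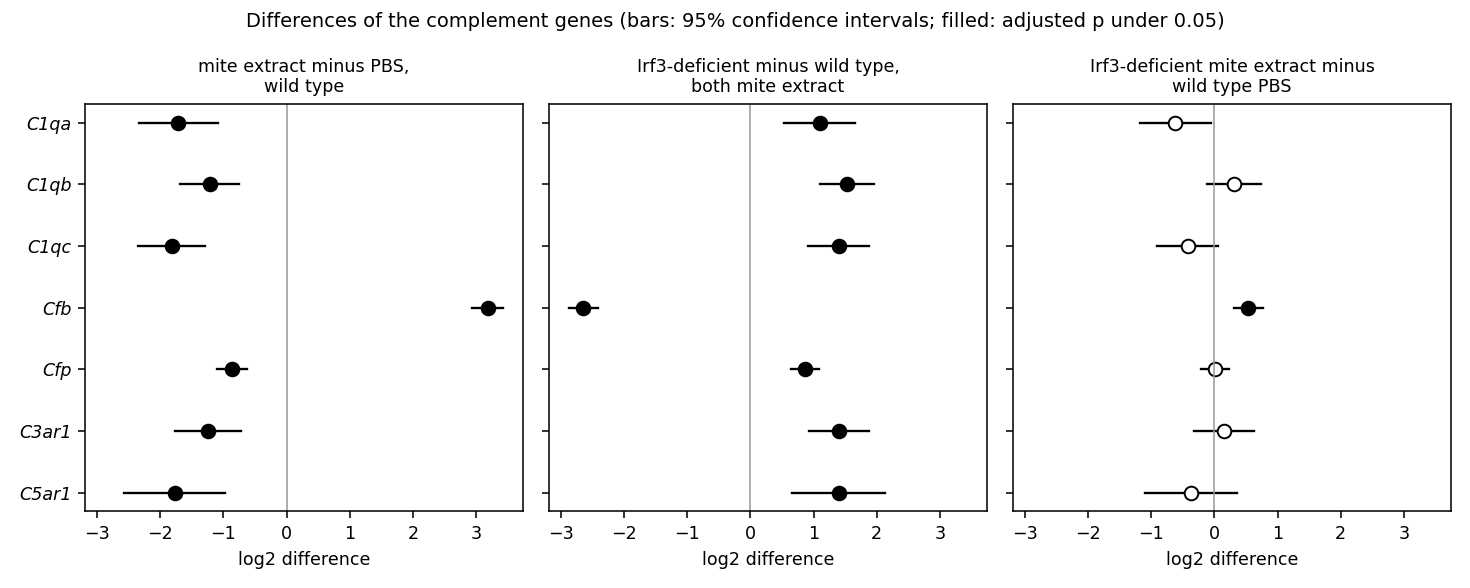
Log2 differences (x axis) of the 7 measured complement genes (rows) in the 3 comparisons, with 95% confidence intervals as bars and filled points where the adjusted p was under 0.05. All 7 points are filled in the first and second comparison, with Cfb opposite to the other 6, and only Cfb is filled in the third, at 0.54.

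By separation of the arrays alone, the picture was the same in the first and second comparison, but not in the third. Arrays of treated and PBS-treated wild type did not overlap for any of the 7 genes, as was the case for 52.6% of all genes (28.5% with treated wild type higher, 24.1% with it lower), and likewise between the treated genotypes, where it held for 43.7% of all genes (23.2% with Irf3-deficient higher, 20.5% with it lower). Between treated Irf3-deficient and PBS-treated wild type arrays, C1qa, C1qb, C1qc and Cfb did not overlap, though only Cfb passed the threshold there. Irf3-deficient arrays were higher for C1qb and Cfb and lower for C1qa and C1qc. Of all genes, 39.1% did not overlap in this comparison (22% with Irf3-deficient higher, 17% with it lower).

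Several lists of markers moved beside the complement genes. For scale, 8.35% of all genes were higher and 9.23% lower in treated than in PBS-treated wild type. Between the treated genotypes 10.7% were higher and 9% lower in Irf3-deficient cells. Against PBS-treated wild type, 5.89% were higher and 4.91% lower in them. Of 20 measured markers of monocytes and interstitial macrophages, 17 fell and 1, Fcgr1, rose in treated against PBS-treated wild type, with a median log2 difference of -1.30. In treated Irf3-deficient against treated wild type cells 13 were higher and 2, Fcgr1 and Apoe, lower (median 0.87), and against PBS-treated wild type 0 were higher and 5 lower (median -0.35). Their summed linear signal was 37204.5 to 38479.2 in treated Irf3-deficient, 22866 to 27552.3 in treated wild type and 51522.2 to 60134.2 in PBS-treated wild type arrays. Adgre1, a macrophage surface receptor gene, differed by -2.05, 1.17 and -0.88 in the 3 comparisons, and passed in each. None of these array values is a zero, and in bulk cells fewer cells of a type and less RNA per cell cannot be told apart. The part of such cells in the fall of the C1q genes, Cfp and the receptors was not tested. Of 19 interferon-stimulated genes, 19 rose in treated against PBS-treated wild type (median 3.46), 19 were lower in treated Irf3-deficient than in treated wild type cells (median -2.31), and 18 were higher in treated Irf3-deficient than in PBS-treated wild type cells (median 0.99).

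**Figure D3:**
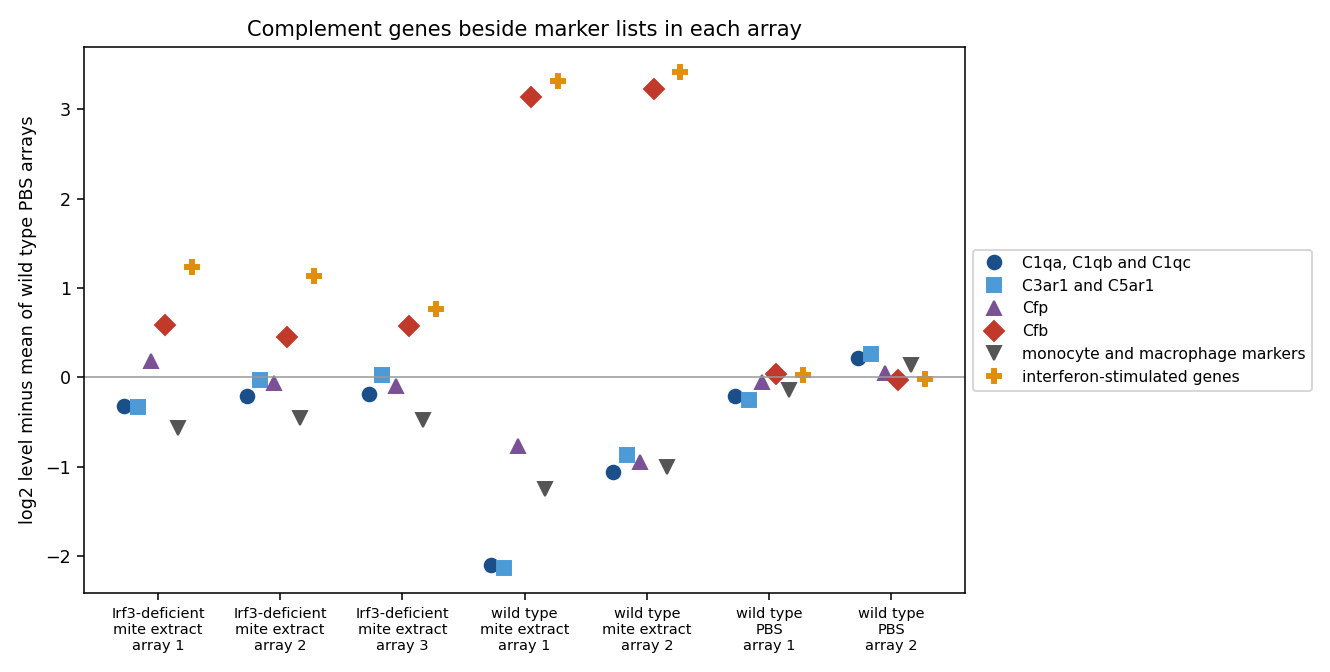
Mean log2 level of each gene or list minus its mean in the PBS-treated wild type arrays (y axis), for each of the 7 arrays (x axis). Cfb lies near the interferon-stimulated genes in treated wild type, at 3.14 and 3.23 against 3.32 and 3.42, but below them in treated Irf3-deficient cells, at 0.58, 0.45 and 0.58 against 1.24, 1.13 and 0.76. The C1q genes lie at -2.10 in treated wild type array 1 and -1.07 in array 2, where the macrophage markers lie at -1.25 and -1.01.

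Treated wild type array 2 exceeded array 1 by a median of 0.27 over the macrophage markers. Single markers ranged from -0.47 for Lyve1 to 0.84 for Ms4a7, with Cd163 at -0.27 and Pf4 at 0.72. The same gap was 0.97 to 1.53 for the C1q and receptor genes, 0.09 for Cfb and -0.18 for Cfp. Between the PBS-treated arrays the median of the macrophage markers was 0.33, and the C1q and receptor genes ranged from 0.23 for C1qb to 0.68 for C5ar1. Other marker lists also held genes that passed, as did 17.6% and 19.7% of all genes in the first and second comparison. In the order of treated against PBS-treated wild type, then treated Irf3-deficient against treated wild type, the counts higher and lower were 2 and 4, then 5 and 2, of 13 cDC2 markers, and 2 and 3, then 2 and 0, of 10 alveolar macrophage markers. They were 2 and 0, then 3 and 0, of 12 neutrophil markers, and 0 and 5, then 1 and 1, of 10 epithelial markers. For markers of B cells and plasmacytoid dendritic cells they were 2 and 0, then 0 and 2, of 7, and for T and NK cell markers 3 and 1, then 2 and 4, of 9.

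The genes whose levels ran most like each member over the 7 arrays were ranked by Pearson correlation among 1810 genes that ranged over at least 1 log2 unit. The arrays fall into 3 groups, so any gene that splits them alike scores high, and the values only describe. For Cfb the nearest were Parp10, Dhx58, 4930599N23Rik, Heatr9 and Gypc, at 0.998 to 0.999, and 23.9% of the ranked genes reached 0.9. Dhx58, an RNA sensor of the RIG-I family, differed by 2.66 in treated against PBS-treated wild type and by -2.18 between the treated genotypes. For Cfp the nearest were Abcd2, Mvb12b, Cerk, Clec4a2 and Igsf6, at 0.990 to 0.997, with 12.8% at 0.9 or more.

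The C1q and receptor genes had fewer close neighbours, with 1.27% of ranked genes at 0.9 or more for C5ar1, 1.71% for C1qa, 2.98% for C3ar1, 3.65% for C1qc and 4.48% for C1qb. These genes also had the gap of 0.97 to 1.53 between the treated wild type arrays, and its part in these counts was not tested. C1qc lay nearest to Olfml3, Ms4a7, Csf1r (the receptor of macrophage colony-stimulating factor), Cd14 (a co-receptor for bacterial lipopolysaccharide) and Pf4, at 0.979 to 0.994. C1qa lay nearest to Plaur, Itga9, Olfml3, Ms4a7 and Zfp691, at 0.972 to 0.982, and C5ar1 to Plaur, Mmp13, Olfml3, Cd14 and Pf4, at 0.965 to 0.987. C1qb and C3ar1 shared Cmklr1, the chemerin receptor gene, as nearest gene, at 0.994 each, and Igf1 among the nearest 5. The rest of their nearest were Mmp12, Lrp12 and Cxcl2 for C1qb, and Fosl2, Dcstamp and Cd14 for C3ar1. Among the members themselves, C1qa and C5ar1 correlated at 0.982, C1qb and C3ar1 at 0.984 and C1qa and C1qb at 0.835, while Cfb stood at -0.953 with Cfp.

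The rest of the pathway moved less. The members and lists were chosen with earlier results of these data known, so that choice may have shaped this contrast. Of 49 other complement genes listed, 46 were measured, and 12 passed in at least 1 of the 3 comparisons. In treated against PBS-treated wild type 1 rose and 6 fell (median 0.04), between the treated genotypes 6 were higher and 3 lower in Irf3-deficient cells (median -0.04), and against PBS-treated wild type 0 were higher and 3 lower in treated Irf3-deficient cells (median -0.02). The first and second counts make up shares near those of all genes. Of the 46, 31 had a mean below 7.91, the median of all gene values, so many may be near the floor of the arrays, for which no detection call was given.

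C2, the classical pathway's counterpart of factor B and the gene next to Cfb on chromosome 17 in GRCm38.p6, was the riser. It stood at 7.22, 7.15 and 7.32 in treated Irf3-deficient cells, at 7.61 and 7.72 in treated wild type and at 7.02 and 7.14 in PBS-treated wild type. C2 rose by 0.58 ± 0.11 in treated wild type (SE, adjusted p = 0.00251) and was lower in treated Irf3-deficient than in treated wild type cells, at -0.44 (adjusted p = 0.00799). The second call was lost without treated wild type array 2 (adjusted p = 0.089 in limma). Its directions were those of Cfb, at a smaller size. The other 13 measured genes of classical and lectin initiation, among them C4b and the mannose-binding lectin and ficolin genes, passed in none of the comparisons.

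Receptor genes made up most of the other calls. Of 9, 5 were lower in treated than in PBS-treated wild type, against 9.23% of all genes. In treated Irf3-deficient cells 6 of 9 were higher than in treated wild type, against 10.7% of all genes. Itgam and Itgax, among the 9, are also on the list of cDC2 markers. Itgam, which encodes the alpha chain of complement receptor 3 and the CD11b used in the sort, stood at 11.74, 11.81 and 11.64 in treated Irf3-deficient cells, at 10.92 and 11.10 in treated wild type and at 12.11 and 12.02 in PBS-treated wild type. Its groups did not overlap, and it differed by -1.06, 0.72 and -0.34 in the 3 comparisons. The first and second of these passed under all 14 alternatives run. The third passed narrowly, at adjusted p = 0.0443 in limma, and was lost under 8 of the 14, each run without 1 Irf3-deficient or PBS-treated array among them, with an adjusted p of up to 0.287. Itgb2, its beta chain, fell by 0.45 in treated wild type, and Itgax, the alpha chain of complement receptor 4 and the gene of CD11c, was higher by 0.31 in treated Irf3-deficient than in treated wild type cells. Lrp1, an endocytic receptor, and Cd93, once described as a C1q receptor, fell by 1.03 and by 1.14 in treated wild type and were higher by 0.82 and by 1.03 in treated Irf3-deficient cells. Calr and C1qbp, whose products bind C1q, were higher by 0.40 and 0.35 in treated Irf3-deficient than in treated wild type cells. The call of Itgb2 was lost without PBS-treated wild type array 1 (adjusted p = 0.051 in limma). Those of Itgax and C1qbp were each lost under 5 of the 14 alternatives, with an adjusted p of up to 0.135 and 0.138: without either treated wild type array, without Irf3-deficient array 2 or 3 for Itgax and 1 or 3 for C1qbp, and with the replicate number as a block.

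C5ar2, the other receptor of C5a, was low in both treated groups. It stood at 8.05, 8.18 and 8.04 in treated Irf3-deficient cells, at 7.79 and 8.04 in treated wild type and at 8.76 and 9.08 in PBS-treated wild type. C5ar2 fell by 1.01 ± 0.14 in treated wild type (SE, adjusted p = 0.000213) and was lower in treated Irf3-deficient than in PBS-treated wild type cells, at -0.84 (adjusted p = 0.0012). Between the treated genotypes it differed by 0.17 (adjusted p = 0.437) and did not pass, and whether C5ar1 and C5ar2 responded differently was not tested.

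Among terminal components, Hc, the gene of C5, stood at 7.67, 7.76 and 7.81 in treated Irf3-deficient cells, at 8.86 and 8.17 in treated wild type and at 8.61 and 8.72 in PBS-treated wild type. All 3 Irf3-deficient arrays lay below the wild type arrays of either treatment. In treated Irf3-deficient cells Hc differed by -0.77 from treated wild type (adjusted p = 0.00443) and by -0.92 from PBS-treated wild type (adjusted p = 0.00319). Without treated wild type array 1 the first was -0.43 and missed the threshold (adjusted p = 0.0506 in limma). The other 6 measured terminal genes, C6, C7, C8a, C8b, C8g and C9, passed in none. Of 16 regulators, 2 passed, and neither held throughout. Serping1, the C1 inhibitor, was lower in treated Irf3-deficient than in treated wild type cells, at -0.60 (adjusted p = 0.0301). Its call was lost under 4 of the 14 alternatives, with an adjusted p of up to 0.316: without treated wild type array 2, without Irf3-deficient array 3, with median centring and with the replicate block. Cd59a, whose product blocks the membrane attack complex, stood at 5.67 and 5.44 in treated wild type, against 6.32 and 5.80 in PBS-treated wild type. These levels lie below 6.69, the lower quartile of all gene values, and were not shown to be above background. Its difference of -0.50 passed (adjusted p = 0.0384) and was lost under 6 of the 13 alternatives that tested it, with an adjusted p of up to 0.35: without treated wild type array 2, PBS-treated wild type array 1 or Irf3-deficient array 2, with no intensity trend, with median centring and with only the 2 groups fitted. Only 2 or 3 arrays, each of 1 pool, stood for each group. The spread behind the p-values was therefore estimated over all 3 groups together and drawn towards that of other genes (4 residual and 8.34 prior degrees of freedom).

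**Figure D4:**
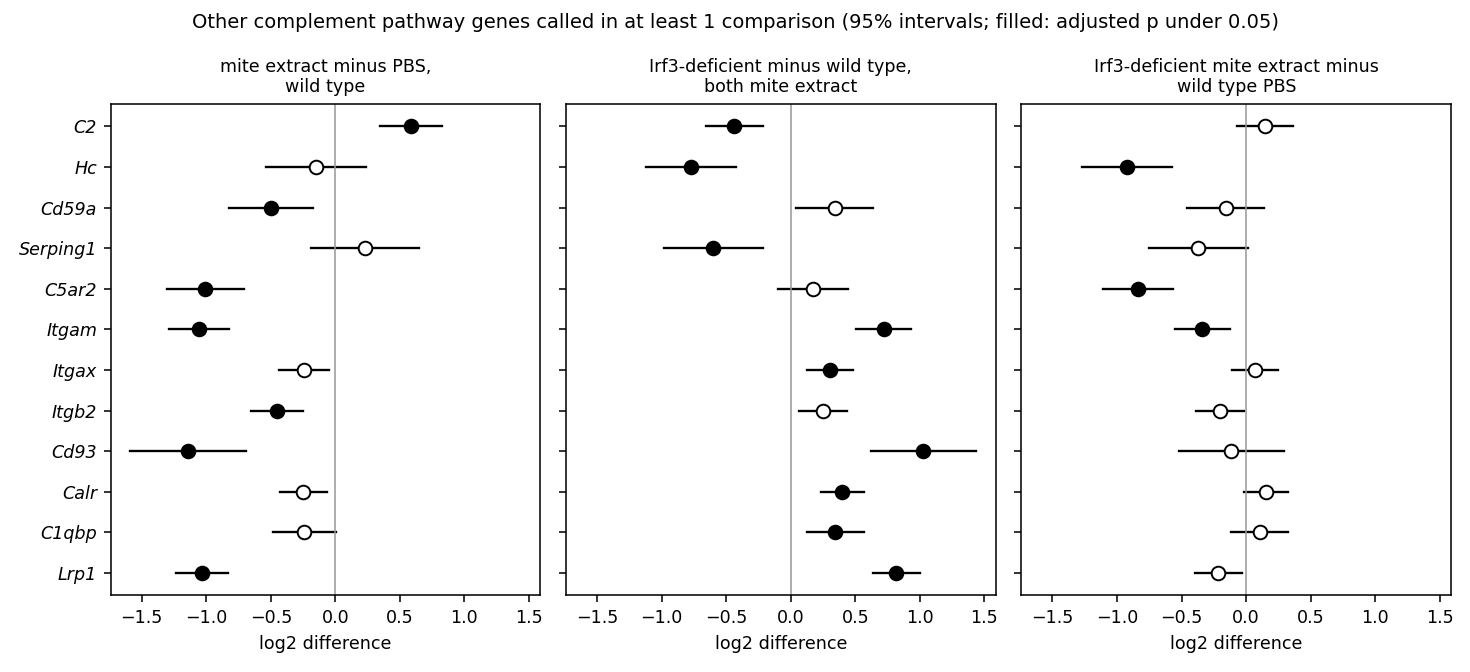
Log2 differences (x axis) in the 3 comparisons for the 12 other complement pathway genes (rows) that passed in at least 1, with 95% confidence intervals and filled points where the adjusted p was under 0.05. Receptor genes such as Lrp1 and Cd93 lie below 0 in the first and above 0 in the second comparison, C2 runs the other way, and Hc and C5ar2 are low in the third, at -0.92 and -0.84.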

How the data were processed

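The authors deposited log2 expression values for 35556 probesets of 7 Affymetrix Mouse Gene 1.0 ST arrays. Per the submitters' processing notes, the tools were R 3.2.1, oligo and RMA, without roles; genome build and scan dates were not given in the sources used here. Gene names came from the platform annotation: 21789 carried 1 symbol, 1621 several and 12146 were not listed. Symbols were updated by Entrez identifier in RefSeq (GRCm38.p6; 19856 of 19938 genes matched), and the brightest single-symbol probeset over the 7 arrays stood for a gene. Groups came from sample titles. A group-means model over all arrays was fitted with limma 3.58.1 in R 4.3.3 (eBayes with intensity trend; 4 residual and 8.34 prior degrees of freedom); tests were two-sided with a Benjamini-Hochberg threshold of 0.05, and the fit was tested on simulated data. The number of arrays limits precision. Members and lists were chosen with earlier results of these data known. The named genes were the members, other listed complement genes passing in at least 1 comparison, and the 5 genes most like each member; marker genes stand beside results. Alternatives covered probeset choice, a filter on dim genes, the trend, scaling, the groups fitted, the replicate number as a block, and leaving out each array.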

Additional observations from a re-analysis of the deposited data

How the results depend on the processing

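Calls of Cfb, C1qb, C1qc, Cfp and C3ar1 in treated against PBS-treated wild type and between the treated genotypes held under every alternative run; those of C1qa and C5ar1 were lost only as given above. Of 19 calls of other complement genes, 11 held under every alternative that tested them and 8 were lost as given above. Leaving out 1 array at a time, 6 to 7 members passed for treated against PBS-treated wild type, 5 to 7 between the treated genotypes and 1 to 3 for treated Irf3-deficient against PBS-treated wild type; over all genes the counts were 2333 to 3724, 2562 to 3906 and 749 to 2359, lowest without treated wild type array 2 in the first and second of these and without PBS-treated wild type array 1 in the last, where 1377 genes passed without Irf3-deficient array 2. In that comparison 3 members passed in a fit of only its 2 groups, and 3 without either treated wild type array, C1qa and C1qb being added. Values of genes that did not pass changed sign there: Cfp to -0.0914 after repeated quantile normalisation, and between -0.0818 and 0.0601 without single arrays, and C3ar1 between -0.0214 and 0.332. With the replicate number as a block, 2 members passed in the same comparison, C1qa being added at -0.65, and 1426 genes, against 2153. The numbers share no stated source: deviations of same-numbered arrays correlated at -0.23 between the wild type groups, and at -0.03 and 0.07 between Irf3-deficient and treated or PBS-treated wild type. The cause of these shifts was not tested.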

Other observations

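Beside the complement genes, the treated wild type arrays differed most on other kinds of genes, which are named here after their values were seen. Among all genes, C5ar1 ranked 12 and C1qa 28 by the size of the gap between these arrays. Cyp2f2, Reg3g and Scgb1a1, genes of airway secretory cells, ranked 1, 3 and 4 and were lower in array 2 by log2 differences of -2.29, -2.14 and -1.93. The small nucleolar RNA genes Snora16a, which ranked 2, Snora3 and Snora69 were higher in array 2, by 2.18, 1.75 and 1.62. So were the collagenase gene Mmp13, by 1.93, and the chemokine gene Ccl12, by 1.24. Between the PBS-treated wild type arrays, array 2 differed from array 1 by 0.96 for Cyp2f2 and by -1.53 for Snora16a, opposite in sign to the treated pair, and by 0.68 for C5ar1 and 0.54 for C1qa, with the same sign.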
